A study of Mus musculus with 6 samples.

Results

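The 10 genes described here mark follicular dendritic cells (FDC) and marginal reticular cells (MRC), 2 kinds of lymph node (LN) stroma. They are Cr2, Fcgr2b, Clu, Mfge8, Prnp, Madcam1, Tnfsf11, Tnfrsf11b, Tmem119 and Sox9, taken by name out of 19938 genes. Each had 1 row in the array table, so no choice between rows was needed. FDC sit in B cell follicles and hold immune complexes for B cells through complement and Fc receptors. MRC line the outer edge of the follicle beneath the subcapsular sinus, and in mice they are known for MAdCAM-1, RANK ligand and CXCL13. Both kinds of cell are known to depend on lymphotoxin, which acts on stroma through the lymphotoxin β receptor (LTβR) and NF-κB.

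The samples were 6 single-colour arrays of mouse RNA, with 1 array for each condition. LN stroma was sorted fresh from digested LN of adult C57BL/6JJcl mice as podoplanin+ VCAM-1+ cells lacking CD45 and CD31. The lines BLS4 and BLS12 were derived from adult LN of BALB/cA mice, and each was measured after 2 days with 1 µg/ml of a goat polyclonal agonistic antibody to LTβR and without it. MEF, embryonic fibroblasts cultured from C57BL/6JJcl embryos at E11.5-13.5, were the remaining array. No control antibody was among these samples, and LN stroma and the lines differ in strain as well as in culture. The number of mice behind the sorted fraction was not given in the sources used here.

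Array medians lay between 51.5 and 56.3 in linear intensity. The background was read from 1035 rows of olfactory receptor genes, which fibroblasts hardly express. Their 95th percentile lay between 34.7 and 38.8 on the 6 arrays, and it is called the background limit here. All 8 fibroblast genes checked, collagens and Vim among them, were above that limit on every array. The LN stroma array also carried transcripts of the exocrine pancreas, given below beside Cr2. The number of arrays limits the precision, and no value below has a replicate of its own condition within a line. In bulk RNA, fewer cells of a type and less RNA per cell cannot be told apart.

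LN stroma held the strongest signal of 5 of the 10 genes, Cr2, Clu, Mfge8, Tnfsf11 and Madcam1, and the weakest of none. MEF held the strongest signal of Tnfrsf11b. For comparison, LN stroma was the highest of the 6 arrays for 20.7% of the 13166 genes that reached the array median somewhere, the lowest for 32.2%, and MEF was the highest for 21%. For Cr2, Clu and Mfge8 it stood at least 2-fold above each other array, a pattern found in 5.04% of those genes. Cr2 reached the median in LN stroma alone, so its place among these genes rests on that array. Fcgr2b lay below the median on all 6 arrays and entered no comparison across genes. On the LN stroma array all 10 genes exceeded the background limit, against 9 in MEF. The number was 8 and 8 in antibody-treated BLS4 and BLS12, and 8 and 7 in unstimulated BLS4 and BLS12. Of all genes, 70.1% exceeded it in LN stroma and 69.8% in MEF. That share was 68.6% and 67.3% in antibody-treated BLS4 and BLS12, and 68.4% and 67.8% unstimulated. Some members lay close to the limit, so nothing is read from these counts.

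**Figure D1:**
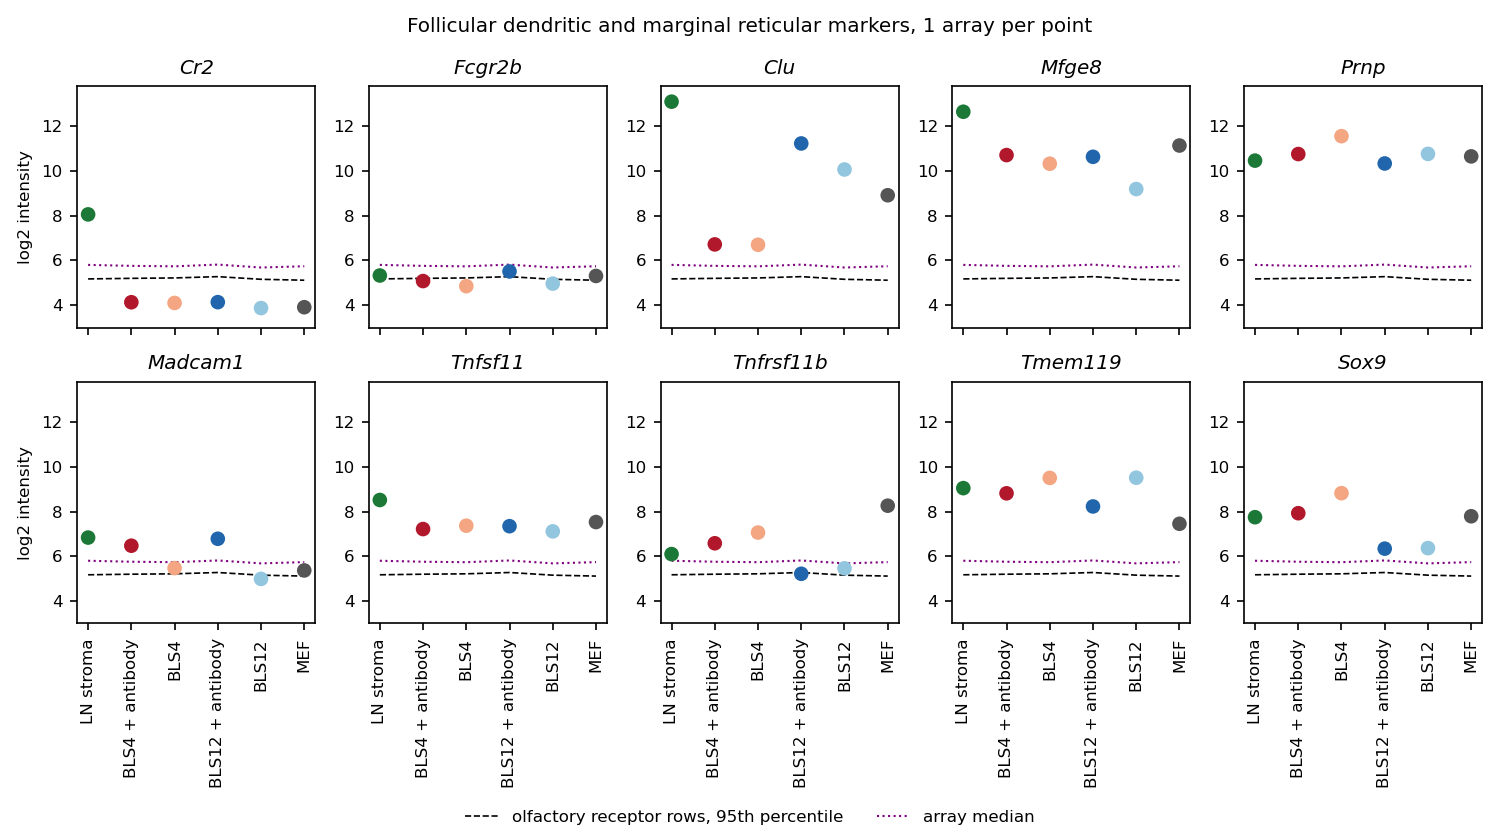
Log2 intensity of each of the 10 genes (vertical axis) on the 6 arrays (horizontal axis, 1 point per array), with the array median (dotted) and the 95th percentile of 1035 olfactory receptor rows (dashed). Cr2 lies at 8.06 in LN stroma and between 3.87 and 4.14 on the other arrays, whereas Prnp lies between 10.3 and 11.6 throughout.

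The antigen-trapping receptors came first. Cr2 encodes complement receptors 2 and 1 in the mouse, which bind C3 fragments on immune complexes. Its intensity was 267 in LN stroma, against 17.5 in antibody-treated BLS4, 17.6 in antibody-treated BLS12, 17.2 in unstimulated BLS4, 14.6 in unstimulated BLS12 and 15.04 in MEF. LN stroma was therefore the only array with Cr2 above the background limit, and both lines stayed below it with and without antibody. The LN signal was 17.7-fold that of MEF, 15.6-fold that of unstimulated BLS4 and 18.2-fold that of unstimulated BLS12. These sizes are approximate because the lower levels lie within background. With values below the array median raised to it, the LN minus MEF difference was 2.32 log2 units in place of 4.15.

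Cr2 is also a B cell gene, so markers of B cells were read on the same array. Of 9 B cell markers with a row, 5 exceeded the background limit of 36.1 in LN stroma, with a summed intensity of 792 in LN stroma and of 228 in MEF. Most of that sum was Spib, at 495 in LN stroma and 25.9 in MEF, an Ets factor that rose with the LTβR antibody (mean difference 3.86 log2 units, limma adjusted p = 0.00573, higher in 2 of 2 lines). Summed B cell marker intensity was 615 and 1164 in antibody-treated BLS4 and BLS12, against 243 and 241 unstimulated. All 9 read higher in LN stroma than in MEF. Blnk, an adaptor of B cell receptor signalling, read 56.1 in LN stroma and 28.6 in MEF, just above the LN array median of 55.8. Several other defining markers were near background: Ms4a1 (CD20) read 29.5, Cd79a 27.5 and Cd22 32.9 in LN stroma, all below the limit, while Cd79b at 45.3, Pax5 at 42.2 and Blk at 39.7 were above it. Ms4a1 read 13.2 in MEF. The part of B cell RNA in the Cr2 signal was not tested. Fcer2a (CD23), carried by B cells and by some FDC, read 24.1 in LN stroma and 18.7 in MEF. The sort had removed CD45+ cells, and Ptprc, which encodes CD45, read 52.1 in LN stroma and 38.2 in MEF.

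The genes whose pattern over the 6 arrays was closest to Cr2 were Pnliprp2, Amy1 and Cel, each with Pearson's r of 0.999 over 6 arrays. All 3 encode digestive enzymes of the exocrine pancreas. Amy1, an amylase, read 1496 in LN stroma and 10.8 in MEF, and Cel, a lipase, read 702 in LN stroma and 24.5 in MEF. Of 1874 genes varying by at least 2 log2 units, 371 had r above 0.9 with Cr2, since any gene high on the LN array alone takes this form. Where the pancreatic transcripts came from, and the part of pancreatic RNA in the Cr2 signal or in any other LN stroma value given here, was not tested.

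Fcgr2b encodes the inhibitory Fc receptor FcγRIIB, which FDC use to display IgG complexes. It read 40.2 in LN stroma, 33.8 in antibody-treated BLS4, 45.6 in antibody-treated BLS12, 28.9 in unstimulated BLS4, 31.2 in unstimulated BLS12 and 39.6 in MEF. All values lay within a narrow band around the background limit, and LN stroma stood at 1.01-fold of MEF. MEF carried signal of myeloid cells, which also express this receptor: 12 of 12 leukocyte and myeloid markers were above the limit there, with a sum of 2731, against 11 of 12 and a sum of 600 in LN stroma. Lyz2, a macrophage lysozyme, read 53.2 in LN stroma, 230 and 791 in antibody-treated BLS4 and BLS12, 373 and 225 in unstimulated BLS4 and BLS12, and 1312 in MEF. The part of such cells in the Fcgr2b values was not tested.

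**Figure D2:**
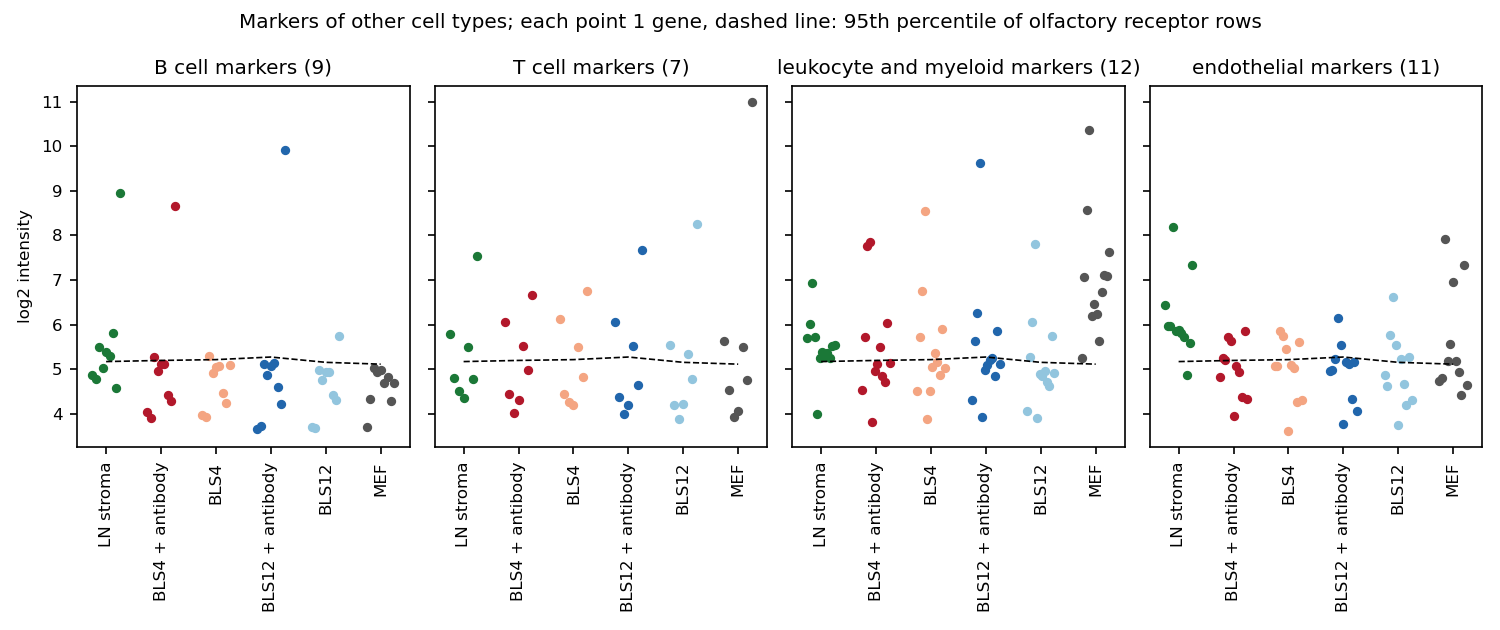
Log2 intensity (vertical axis) of markers of B cells, T cells, leukocytes and myeloid cells, and endothelium on each array (horizontal axis, 1 point per gene); the dashed line is the 95th percentile of olfactory receptor rows. In LN stroma the summed intensities were 792, 386, 600 and 967 in that order of lists, against 228, 2198, 2731 and 782 in MEF.

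The secreted and surface products of FDC were bright on most arrays. Clu encodes clusterin, an extracellular chaperone abundant in FDC. It read 8776 in LN stroma, 105 in antibody-treated BLS4, 2404 in antibody-treated BLS12, 104 in unstimulated BLS4, 1073 in unstimulated BLS12 and 483 in MEF. LN stroma stood 18.2-fold above MEF, 84.3-fold above unstimulated BLS4 and 8.18-fold above unstimulated BLS12. The lines lay on opposite sides of MEF, with BLS12 at 2.22-fold of MEF and BLS4 at 0.216-fold.

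Mfge8 encodes a secreted bridge between apoptotic cells and the phagocytes that engulf them, and it carries the FDC-M1 epitope. It read 6423 in LN stroma, 1677 in antibody-treated BLS4, 1590 in antibody-treated BLS12, 1283 in unstimulated BLS4, 585 in unstimulated BLS12 and 2255 in MEF. LN stroma exceeded unstimulated BLS4 by 2.32 log2 units, unstimulated BLS12 11.0-fold and MEF 2.85-fold. Every line array lay below MEF.

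Prnp, the prion protein gene, is known for the part FDC play in prion replication in lymphoid tissue. It read 1412 in LN stroma, 1732 in antibody-treated BLS4, 1293 in antibody-treated BLS12, 3015 in unstimulated BLS4, 1741 in unstimulated BLS12 and 1611 in MEF. LN stroma and MEF were nearly level, at a ratio of 0.877, and unstimulated BLS4 was the highest array.

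Of the MRC genes, Madcam1 encodes the adhesion molecule that binds integrin α4β7, and it is shared with high endothelial venules. It read 114 in LN stroma, 89.0 in antibody-treated BLS4, 110 in antibody-treated BLS12, 44.4 in unstimulated BLS4, 31.8 in unstimulated BLS12 and 41.3 in MEF. The 3 highest arrays were thus LN stroma and both antibody-treated lines, and the other 3 lay below the array median. LN stroma exceeded MEF 2.77-fold, but antibody-treated BLS12 only 1.04-fold and antibody-treated BLS4 1.29-fold. Of 11 endothelial markers, 10 were above the background limit in LN stroma and 6 in MEF, with summed intensities of 967 in LN stroma and 782 in MEF. They did not move as 1 group: 8 read higher in LN stroma than in MEF and 3 lower. Glycam1, a product of high endothelial venules, read 162 in LN stroma and 25.3 in MEF, and Pecam1 (CD31) read 86.8 in LN stroma and 26.6 in MEF. Kdr, a VEGF receptor, read 62.3 in LN stroma and 243 in MEF, Flt4 read 48.0 in LN stroma and 162 in MEF, and Emcn read 58.7 in LN stroma and 124 in MEF. Endothelial sums were lower in the lines, at 385 and 376 in antibody-treated BLS4 and BLS12, against 391 and 407 in unstimulated BLS4 and BLS12, and Glycam1 at 16.7 to 20.3. The part of endothelial RNA in the LN value of Madcam1 was not tested.

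Promoter windows of 300 bases (250 before to 50 after the start site; RefSeq, GRCm38.p6) were found for 6 of the 10 genes. Those of Madcam1 and Mfge8 are printed because these genes had the highest mean differences with the antibody of the 8 tested. Clu, Sox9, Tmem119 and Tnfrsf11b had no entry. Capitals mark matches to the NF-κB consensus, searched on both strands with overlaps allowed.
Madcam1 (chr10:79664309-79664608, + strand): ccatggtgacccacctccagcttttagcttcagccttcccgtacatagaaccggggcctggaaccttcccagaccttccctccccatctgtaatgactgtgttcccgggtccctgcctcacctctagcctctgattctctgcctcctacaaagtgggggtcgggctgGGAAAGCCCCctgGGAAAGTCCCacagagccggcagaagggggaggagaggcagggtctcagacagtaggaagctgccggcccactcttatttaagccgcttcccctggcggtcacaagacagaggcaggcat
Mfge8 (chr7:79149011-79149310, - strand): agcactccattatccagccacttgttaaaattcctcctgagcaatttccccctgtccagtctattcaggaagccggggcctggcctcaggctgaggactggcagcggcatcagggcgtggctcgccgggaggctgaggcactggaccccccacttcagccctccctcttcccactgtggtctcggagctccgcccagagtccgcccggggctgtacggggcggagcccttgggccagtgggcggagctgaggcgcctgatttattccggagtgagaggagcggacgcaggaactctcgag
The Madcam1 window held 2 matches, from -83 to -74 and from -70 to -61 relative to the start site. Read on the opposite strand they are GGGGCTTTCC and GGGACTTTCC. Of 32851 promoter windows, 8.46% held at least 1 match and 1.22% at least 2. The windows of Mfge8, Cr2, Fcgr2b, Prnp and Tnfsf11 held none. A match describes letters in this window and is not a measured binding site.

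Tnfsf11 encodes RANK ligand, which MRC and their fetal precursors make. It read 367 in LN stroma, 149 in antibody-treated BLS4, 163 in antibody-treated BLS12, 165 in unstimulated BLS4, 139 in unstimulated BLS12 and 185 in MEF. LN stroma was highest, at 1.98-fold of MEF, 2.22-fold of unstimulated BLS4 and 2.64-fold of unstimulated BLS12. The 5 cultured arrays lay close together. T cells are another source of RANK ligand, and 3 of 7 T cell markers exceeded the background limit in LN stroma, as on each other array. Cd3d, Cd3g and Cd4 read 28.2, 22.9 and 20.4 in LN stroma, below that limit. Cd3e read 55.8 in LN stroma and 49.9 in MEF. In the lines Cd3e read 67.1 in antibody-treated BLS4, 67.1 in antibody-treated BLS12, 69.5 in unstimulated BLS4 and 46.8 in unstimulated BLS12. Summed T cell marker intensity was 386 in LN stroma and 2198 in MEF, where Thy1, also a fibroblast gene, made up most of it. The part of T cell RNA in the Tnfsf11 value was not tested.

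Tnfrsf11b encodes osteoprotegerin, the soluble decoy that binds RANK ligand. It read 68.6 in LN stroma, 95.9 in antibody-treated BLS4, 37.3 in antibody-treated BLS12, 134 in unstimulated BLS4, 44.1 in unstimulated BLS12 and 307 in MEF. MEF was the highest array, and LN stroma differed from it by -2.16 log2 units, or 0.223-fold. The ligand was higher and the decoy lower in LN stroma than in MEF and in unstimulated BLS4, whereas against unstimulated BLS12 both were higher in LN stroma. The Tnfsf11 to Tnfrsf11b ratio was 8.88-fold higher in LN stroma than in MEF, 4.32-fold higher than in unstimulated BLS4 and 1.70-fold higher than in unstimulated BLS12. With the antibody that ratio changed by 1.26-fold in BLS4. In antibody-treated BLS12 the Tnfrsf11b signal lay below the background limit of 38.8, so no ratio is given there. The receptor RANK itself, Tnfrsf11a, read 35.7 in LN stroma, below the background limit, and 68.7 in MEF.

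Tmem119 encodes a membrane protein known from osteoblasts and microglia. It read 530 in LN stroma, 451 in antibody-treated BLS4, 300 in antibody-treated BLS12, 727 in unstimulated BLS4, 732 in unstimulated BLS12 and 176 in MEF. All LN-derived arrays lay above MEF, LN stroma by 3.02-fold, unstimulated BLS4 by 4.14-fold and unstimulated BLS12 by 4.17-fold. Of 6 osteoblast genes with a row, 2 reached the median in LN stroma or MEF, and they went opposite ways. Alpl, alkaline phosphatase, read 218 in LN stroma and 62.9 in MEF, a difference of 1.79 log2 units beside 1.59 for Tmem119. Dlx5, a homeobox gene, read 67.2 in LN stroma and 136 in MEF. Microglia belong to the myeloid cells, and the myeloid marker Cx3cr1 read 46.0 in LN stroma and 137 in MEF.

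Sox9 encodes a transcription factor best known from cartilage. It read 215 in LN stroma, 244 in antibody-treated BLS4, 81.2 in antibody-treated BLS12, 453 in unstimulated BLS4, 82.6 in unstimulated BLS12 and 222 in MEF. LN stroma and MEF were level, at a ratio of 0.971, while the lines lay on either side. Of 10 cartilage and SOX9-linked genes, 7 were kept against MEF and 1 was 4-fold lower in LN stroma, Col11a1, at 99.0 in LN stroma and 743 in MEF. Acan, which encodes aggrecan, stayed between 20.8 and 26.6 on all arrays.

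Counted at 4-fold, with no test because each source had 1 array, Cr2 and Clu were higher and Tnfrsf11b was lower in LN stroma than in MEF. In that comparison 7.57% of 12613 genes passed the same fold in either direction, 4.64% higher and 2.93% lower. Against both unstimulated lines Cr2, Clu and Mfge8 were higher by 4-fold or more and no member was lower. There 4.09% of 12827 genes passed in either direction, 3.52% higher and 0.569% lower. Of the lines against MEF, Tmem119 was higher 4-fold in both, where 1.44% of 12676 genes passed in either direction, 0.308% higher and 1.14% lower. After quantile normalization Tmem119 no longer reached 4-fold in both lines. Of the 9 members kept against MEF, and of the 9 kept against the lines, 2 were kept through their LN value alone, Cr2 and Madcam1.

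**Figure D3:**
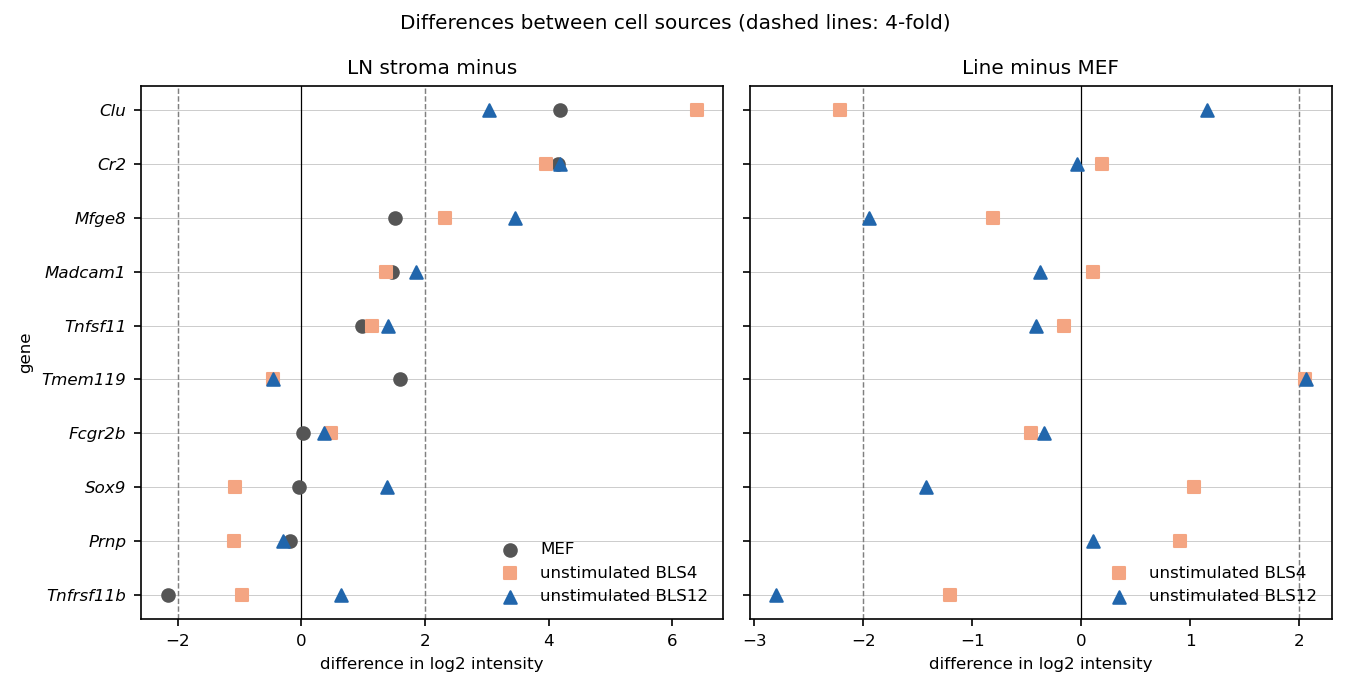
Difference in log2 intensity (horizontal axis) for each gene (vertical axis) between LN stroma and MEF or each unstimulated line (left panel) and between each unstimulated line and MEF (right panel); dashed lines mark 4-fold. Clu spans 3.03 to 6.40 in the left panel, and both lines lie just beyond 4-fold for Tmem119 in the right panel.

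Other FDC and MRC genes were read alongside. Of 12, among them the sort genes Vcam1 and Pdpn, 11 were kept in the comparison of LN stroma with MEF, and 6 were higher 4-fold and 0 lower. Of these 6, 5 were below the MEF median and were kept through their LN value alone: Cxcl13, Il6, C4b, Tnfsf13b and Bst1. Their count is therefore a description. Cxcl13, the B cell chemokine of FDC and MRC, read 7223 in LN stroma and 24.9 in MEF. C4b, the complement component that carries the FDC-M2 epitope, read 5291 in LN stroma and 35.7 in MEF, and Tnfsf13b (BAFF) 1433 in LN stroma and 30.7 in MEF. The same number, 6 of 11 kept, was higher against both unstimulated lines, with 0 lower, and there 1 of the 6, Cxcl13, was kept through LN stroma alone. Of T zone reticular genes, 4 of 8 kept were 4-fold higher in LN stroma than in MEF and 0 lower, 1 of them, Il7, kept through LN stroma alone. Ccl19, the T zone chemokine, read 5738 in LN stroma and 67.7 in MEF. Some markers of each zone were thus bright in the sorted fraction. Of the 12 FDC and MRC genes, 2 read no higher there than in MEF, Ltbr and Pdpn. Of the 8 T zone genes with a row, 2 did so, Grem1 and Pdpn. The RANK ligand pathway list includes Tnfsf11 and Tnfrsf11b. Of its 14 kept genes, 3 were higher 4-fold in LN stroma than in MEF (Fos, Nfkbia and Nfkbie) and 1 lower (Tnfrsf11b). Over all genes kept against MEF, 4.64% were higher 4-fold in LN stroma and 2.93% lower. Against both unstimulated lines these shares were 3.52% and 0.569%.

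The antibody comparison asked whether LTβR stimulation moved these markers in the lines. Madcam1 had the highest mean difference of the members, at 1.00 log2 units in BLS4 and 1.79 in BLS12 (2.00-fold and 3.47-fold), followed by Mfge8 at 0.39 and 1.44 in BLS4 and BLS12. Tmem119 had the lowest, at -0.69 in BLS4 and -1.28 in BLS12, and Prnp stood at -0.80 and -0.43. No member passed the threshold of 0.05 in limma, fitted over the 4 line arrays with cell line as a block, where 33 of 11988 genes did (0.275%), 0.2% higher and 0.0751% lower. Of the 8 members tested, 4 had an unadjusted p under 0.05, against 11.6% of all genes. Of these, Madcam1 was kept through its treated arrays alone. Clu, Mfge8 and Madcam1 were higher in both lines by some amount, as were 28.4% of all genes. Prnp, Tmem119, Sox9 and Tnfrsf11b were lower in both, as were 31.5%. Clu in BLS4 (0.016) and Sox9 in BLS12 (-0.024) were almost level. The array median of BLS4 itself differed by 0.0207 with the antibody, more than Clu did there.

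Madcam1 differed by 1.40 (SE 0.216, limma adjusted p = 0.0923, higher in 2 of 2 lines). It reached the array median on the 2 antibody-treated arrays and on neither unstimulated one, so it entered the test only through the group where it was high. It was at least 2-fold higher in both lines, as were 52 genes (0.434%), and nothing is read from that share. Antibody-treated arrays lay at 6.48 and 6.79 log2 units in BLS4 and BLS12, against 5.47 and 4.99 unstimulated. Both unstimulated values lie below the array median, which makes the size approximate. The median of the treated BLS12 array lay 0.13 log2 units above that of the unstimulated one, and with arrays centred on their medians Madcam1 passed in limma (1.32, adjusted p = 0.0351). Over all alternatives its adjusted p ran between 0.0351 and 1.

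Mfge8 differed by 0.91 (SE 0.262, limma adjusted p = 0.279, higher in 2 of 2 lines), above 98.8% of the genes tested. BLS12 took most of it, and the treated lines ended close together, at 10.7 and 10.6 log2 units in BLS4 and BLS12. The Clu difference was 0.02 in BLS4 against 1.16 in BLS12, with a mean of 0.59 (limma adjusted p = 0.495). Whether the response of Clu or Mfge8 differed between the lines was not tested, since 1 array per line and condition leaves no spread for it.

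Tmem119 differed by -0.99 (SE 0.186, limma adjusted p = 0.129, lower in 2 of 2 lines), and 0.684% of genes lay lower. Prnp differed by -0.61 (SE 0.158, limma adjusted p = 0.232, lower in 2 of 2 lines). The Sox9 difference was -0.90 in BLS4 against -0.02 in BLS12, with a mean of -0.46 (limma adjusted p = 0.522). Tnfrsf11b differed by -0.36 (limma adjusted p = 0.431) and Tnfsf11 by 0.04 (limma adjusted p = 0.95). Cr2 and Fcgr2b were below the filter and not tested. Their differences were 0.03 in BLS4 and 0.26 in BLS12 for Cr2, and 0.23 and 0.54 for Fcgr2b, all between values at or near background.

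**Figure D4:**
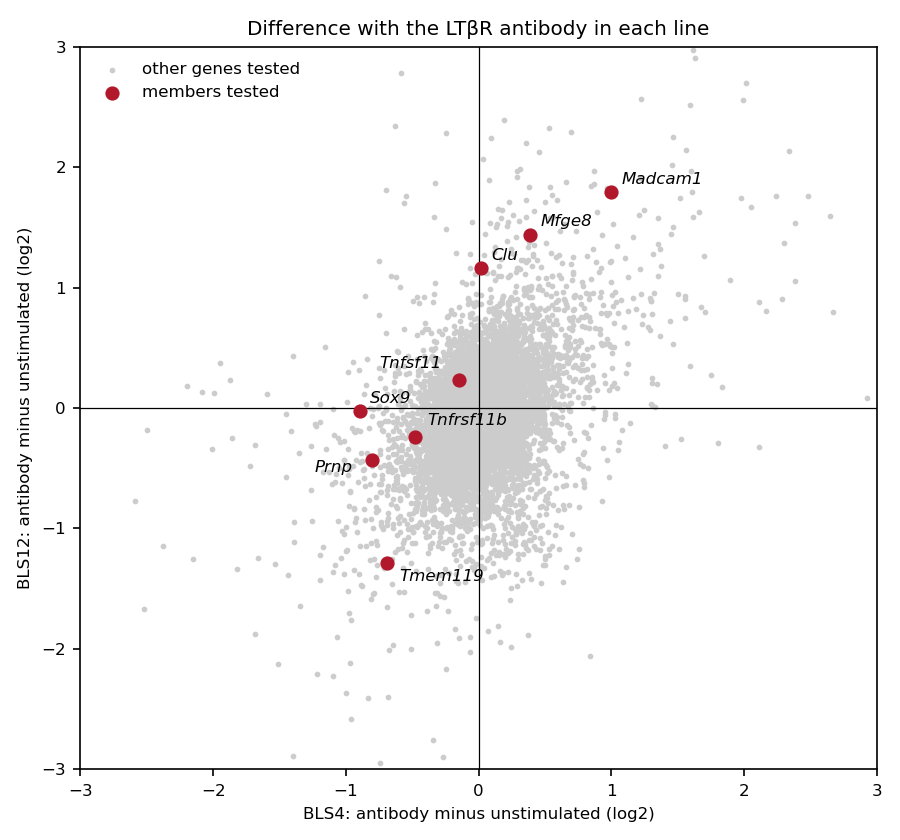
Antibody minus unstimulated difference in log2 intensity in BLS4 (horizontal axis) and BLS12 (vertical axis) for 11988 genes (grey) and the 8 members among them (red); 15 genes lie outside the axes. Madcam1 lies at 1.00 and 1.79 and Tmem119 at -0.69 and -1.28, while Clu lies on the vertical axis and Sox9 on the horizontal one.

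Of the other FDC and MRC genes 9 were tested with the antibody, with 0 past the threshold in limma. Their median difference was 0.54, and 4 had an unadjusted p under 0.05. Over all 11988 genes tested, 0.2% passed as higher and 0.0751% as lower. Of these genes 11.6% had an unadjusted p under 0.05, and their median difference was -0.017. The difference of Bst1, a surface enzyme found on MRC, was large in 1 line: it read 58.3 and 171 in antibody-treated BLS4 and BLS12, against 54.7 and 35.97 unstimulated (mean difference 1.17, limma adjusted p = 0.436). Icam1 read 114 and 1042 treated, against 101 and 333 unstimulated (mean difference 0.91, limma adjusted p = 0.401). Cxcl13, below the filter, read 27.2 and 70.4 in antibody-treated BLS4 and BLS12, far from the 7223 of LN stroma. In the RANK ligand pathway 2 of 13 tested genes rose and 0 fell. They were Nfkbie (2.93, limma adjusted p = 0.00573) and Nfkbia (2.00, limma adjusted p = 0.0305), both inhibitors of NF-κB that are also its targets. Of 7 T zone genes tested 0 passed in limma, with 3 at an unadjusted p under 0.05, and of 7 cartilage genes 0 passed, with 0 at that p.

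Between the lines, 4 of the 8 members tested differed, 1 higher and 3 lower in BLS12 than in BLS4. In limma 23.6% of all 11988 genes differed, 12.2% higher and 11.4% lower, so differences between these lines were common. Clu was higher in BLS12 by 3.94 log2 units, or 15.3-fold (SE 0.278, limma adjusted p = 0.00112, higher in both conditions). Sox9 was lower in BLS12, with a difference of -2.02 (SE 0.230, limma adjusted p = 0.00461), and so was Tnfrsf11b, by -1.48 (SE 0.146, limma adjusted p = 0.00313). For these 3 the BLS12 and BLS4 arrays did not overlap, a separation shown by 33.2% of genes in the higher and 30.8% in the lower direction. Prnp was lower in BLS12 by a smaller amount, -0.61 (SE 0.158, limma adjusted p = 0.0441), with overlapping arrays. The call on Prnp was lost after quantile normalization (adjusted p = 0.0609) and without the antibody as a block (adjusted p = 0.259).

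Mfge8 differed between the lines by -1.13 in unstimulated cells and -0.08 in treated cells (mean -0.60, limma adjusted p = 0.152). Madcam1 (-0.09, adjusted p = 0.81), Tnfsf11 (-0.06, adjusted p = 0.812) and Tmem119 (-0.29, adjusted p = 0.312) did not pass in limma. Icam1 was higher in BLS12 (2.46, limma adjusted p = 0.00787) and Il6 was lower (-1.86, limma adjusted p = 0.00687). Of the 7 T zone genes tested 4 were lower in BLS12 and 0 higher, Cxcl12 by -2.17 (limma adjusted p = 0.000881) among them. Over all genes tested, 11.4% were lower in BLS12 and 12.2% higher.

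Similar patterns over the 6 arrays differed from member to member, described by Pearson's r with no test. Clu came closest to Thbs3 (r = 0.991), Mrvi1 (0.983) and Icam1 (0.978), and Mfge8 to Cdc14a (0.980), Irs2 (0.969) and Tuba8 (0.968). Tmem119 came closest to Selenop (0.948), Aox1 (0.932) and Hoxd8 (0.927), all low in MEF. Sox9 came closest to Itga11 (0.996), Tspan6 (0.990) and Adamtsl3 (0.986), which were highest in unstimulated BLS4, and Tnfrsf11b to Arxes2 (0.994), Galnt17 (0.988) and Lmo7 (0.988), which were highest in MEF. The pairs of members with the highest r were Cr2 and Tnfsf11 (0.959) and Mfge8 and Tnfsf11 (0.911). The lowest r was -0.864, for Prnp and Fcgr2b. Cr2 was above the background limit in LN stroma alone, so its r follows that array. Fcgr2b varied by only 0.66 log2 units around that limit, so nothing is read from its r. These 6 arrays share sources and normalization, and 4 of them come from 2 lines.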

How the data were processed

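Members and gene lists were chosen with earlier results of these data known. The authors deposited linear intensity values from Affymetrix Expression Console 1.1, per the submitters' processing notes. How probes were summarised and scaled, and the build, is not given in the sources used here. Log2 was taken with no pseudocount, the lowest value being 3.55. Of 35557 rows, 21789 named 1 gene in the platform annotation, 1621 several and 12147 none; rows of several genes were left out, and the brightest row stood for each of 999 genes with more than 1.

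One additive model over the 4 line arrays, with line and antibody as terms, was fitted in limma 3.58.1 (R 4.3.3; two-sided, Benjamini-Hochberg, threshold 0.05). It used 11988 genes at or above the array median on at least 2 of these arrays. Residual degrees of freedom were 1 and prior ones 4.59, with 0.151 log2 units as the prior SD. Arrays of a line are paired as the same cells. The labels name no separate cultures, and no repeat array of a line and condition enters the model. Its residual is how far the lines disagree in their antibody difference, which may be partly technical. The p-values rest on that disagreement and on the prior. Simulated data were used to test the model, with 250 genes at each size of antibody difference. At 0.5 log2 units it recovered 0.4% of them and at 1 log2 unit 52%. At 2 and 3 log2 units the shares were 98% and 100%. Nothing is therefore read from an antibody difference near or below 1 log2 unit that did not pass. LN stroma and MEF had 1 array each, and differences were counted at 4-fold, in both lines where lines took part, among genes reaching the median on at least 1 array compared.

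Named genes were all members and up to 4 of each list with the largest differences. Single cell type markers, and list genes below the filter, were picked by role after their values were seen. Closest patterns were the 3 genes with the highest Pearson's r for members spanning at least 2 log2 units. Alternatives were median centring, quantile normalization, no filter, the mean of a gene's rows, a floor at the array median, no block, leaving out a line or a condition, and treated in place of unstimulated lines.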

Additional observations from a re-analysis of the deposited data

Results flagged for a closer look

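Tnfsf11, the RANK ligand gene, was the 1 member whose antibody difference had opposite signs in the lines, at -0.15 log2 units in BLS4 and 0.23 in BLS12. It drew attention for this reason alone. Of all 11988 genes tested, 28.4% were higher in both lines and 31.5% lower in both. Opposite signs were thus common, and nothing is read from this one. The difference between the lines was not tested, with 1 array per line and condition, and both values are small beside the 1.00 and 1.79 of Madcam1.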

How the results depend on the processing

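The antibody count of 33 (24 higher, 9 lower) became 98 with arrays centred (54 higher, 44 lower), 6 after quantile normalization (5 higher, 1 lower) and 54 with no filter on low values. With no replicate block, leaving the cell line out, limma called 0 genes (241 at an unadjusted p under 0.05); without the antibody as a block the line count of 2835 became 1428. Genes 2-fold apart in both lines (80) were 188 to 447 when a line was left out. Leaving out a line also gave 762 to 981 genes in place of 524 for LN stroma against the lines. For the lines against MEF it gave 385 to 463 in place of 183. These counts ask for the fold in both lines, so leaving a line out loosens the rule and a rise was built in. All 524 and all 183 genes were still counted. Members on which the lines disagree depended on the line kept. Without BLS4 or without BLS12, Clu in the lines against MEF was 1.15 or -2.21 (mean -0.53), Sox9 was -1.42 or 1.03 (mean -0.20), and in LN stroma against the lines Sox9 was 1.38 or -1.07 (mean 0.15) and Tnfrsf11b 0.64 or -0.96 (mean -0.16). The antibody difference of Tnfsf11 turned to -0.035 with centring and ran from -0.15 to 0.23 when a line was left out. The line difference of Madcam1 turned to 0.13 with values floored at the array median and to 0.31 in treated cells alone, where that of Tnfsf11 was 0.13; that of Tmem119 was 0.0084 in unstimulated cells alone. The causes were not tested. The calls on Clu, Sox9 and Tnfrsf11b between the lines held under all 6 tested alternatives. Cr2 outside LN stroma, Fcgr2b, unstimulated Madcam1 and Tnfrsf11b in BLS12 lie near background, which limits their sizes.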

Other observations

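Exocrine pancreas RNA on the LN stroma array was followed with 15 acinar genes, a list drawn up after the pattern of Cr2 had been seen. The list includes Pnliprp2, Amy1 and Cel, found by their likeness to Cr2, so the count is a description. Of the 14 with a row, 13 were at least 4-fold higher in LN stroma than on each other array. Their summed intensity was 11191 in LN stroma, 666 and 565 in antibody-treated BLS4 and BLS12, 598 and 488 in unstimulated BLS4 and BLS12, and 505 in MEF. Ctrb1, a chymotrypsinogen, read 2234 in LN stroma and 52.9 in MEF, and Cpa1, a carboxypeptidase, 2019 in LN stroma and 30.1 in MEF. Cpb1 read 1452 in LN stroma and 15.8 in MEF. The exception was Ptf1a, a transcription factor of acinar cells, at 28.9 in LN stroma and 27.4 in MEF, both below the background limit. Their source was not tested.

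The antibody-treated lines came near LN stroma in some members and stayed far in others. For Madcam1 LN stroma stood at 1.29-fold of treated BLS4 and 1.04-fold of treated BLS12, against 2.58-fold and 3.60-fold of the unstimulated lines. For Cr2 it stood at 15.2-fold of both treated lines, and for Clu at 83.3-fold of treated BLS4 and 3.65-fold of treated BLS12. For Tnfsf11 it stood at 2.46-fold and 2.25-fold of treated BLS4 and BLS12.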
